A study of Mus musculus with 15 samples.

Results

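The naive pluripotency transcription factors described here are 10 genes: Nanog, Klf2, Klf4, Klf5, Esrrb, Tfcp2l1, Zfp42, Tbx3, Prdm14 and Nr0b1. They were taken by name, with gene identifiers matched to GENCODE M21 symbols, from the 55471 genes counted in each library, and all 10 passed the filter on low counts in every comparison. Poly(A) RNA was sequenced from 15 libraries of E14 mouse cells in 5 groups of 3. NSD1-dTAG cells carry a knocked-in degron tag on NSD1, a histone H3 lysine 36 methyltransferase, and dTAG-13 is a small molecule that directs a tagged protein to the proteasome. The groups are embryoid bodies (EBs, suspended aggregates that differentiate) of the NSD1-dTAG line grown for 6 days in serum medium with 500 nM dTAG-13 throughout, the same EBs nontreated, nontreated NSD1-dTAG embryonic stem cells (mESCs), wild-type (WT) mESCs given 500 nM dTAG-13 for 72 h, and WT mESCs left nontreated. All mESCs, including those from which the EBs were started, were grown in 2i/LIF medium, which contains LIF, a cytokine, and inhibitors of the kinases MEK and GSK3. The labels call the libraries biological replicates and do not say whether the NSD1-dTAG line is 1 clone, so p-values measure the spread between these libraries. WT EBs and NSD1-dTAG mESCs with dTAG-13 were not analysed here, so an effect of dTAG-13 on EBs without the tag cannot be told apart from loss of NSD1.

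Naive pluripotency is the state of the inner cell mass before implantation, and 2i/LIF medium holds mouse stem cells in it. LIF acts through STAT3, which activates Klf4 and Tfcp2l1. Inhibition of GSK3 relieves repression by TCF7L1 of genes such as Esrrb and Nanog, and inhibition of MEK blocks the signal that dissolves the network. When the inhibitors and LIF are withdrawn, the naive factors are switched off while Pou5f1 and Sox2 remain on through a formative stage.

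Gene counts per library summed to between 18704591 and 29103958, and none of the 10 genes had fewer than 70 counts in any library. In each group 1 library stood apart from the others: dTAG-13 EB library 3, nontreated EB library 3, NSD1-dTAG mESC library 1, WT dTAG-13 library 3 and WT nontreated library 1. These 5 libraries had a read-weighted mean exon length of 4.99 to 5.50 kb against 5.71 to 5.93 kb in the other 10, and 5.69% to 7.92% of their counts lay on ribosomal protein genes against 4.69% to 5.31%. Results are therefore also given without them. Nsd1 mRNA was at 230 to 329 counts per 1000000 gene counts (CPM) in dTAG-13 EBs, 209 to 261 in nontreated EBs, 163 to 346 in NSD1-dTAG mESCs, 248 to 393 in WT dTAG-13 mESCs and 309 to 396 in WT nontreated mESCs. Since dTAG-13 degrades protein, and no protein was measured here, mRNA counts are no check of NSD1 loss. Counts of the EBs match their label: summed CPM of 11 extraembryonic endoderm markers, such as Gata4, Gata6 and Sox17, was 189 to 615 in dTAG-13 EBs and 391 to 502 in nontreated EBs, against 2.16 to 2.41 in NSD1-dTAG mESCs, where Ttr was at 0.

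In mESCs the factors covered a wide range of levels. On the TPM scale, which is like CPM but divides by exon length and so allows genes to be compared, Zfp42 and Nanog were at the top with means of 981 ± 11.4 and 978 ± 38.0 TPM in NSD1-dTAG mESCs (SD, n = 3), and their libraries overlapped. Klf2 was next at 459 ± 34.3 TPM, followed by Klf4, Esrrb, Tfcp2l1 and Klf5 with means from 407 to 271 TPM, and each of these overlapped its neighbour in the order. Nr0b1 at 174 ± 23.7, Tbx3 at 73.9 to 117 TPM and Prdm14 at 49.2 ± 6.40 TPM came last and did not overlap one another. The order changed in EBs. In nontreated EBs Nanog alone was at the top with 574 ± 53.7 TPM, above Zfp42 at 242 ± 53.1 TPM without overlap, and the lowest 4 factors, Tfcp2l1, Klf4, Prdm14 and Tbx3, lay between 27.1 and 11.0 TPM, each overlapping its neighbour. In dTAG-13 EBs Nanog was again alone at the top with 349 ± 54.6 TPM, and Klf4 at 8.01 ± 0.251 and Prdm14 at 7.68 ± 3.84 TPM were lowest and overlapped.

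**Figure D1:**
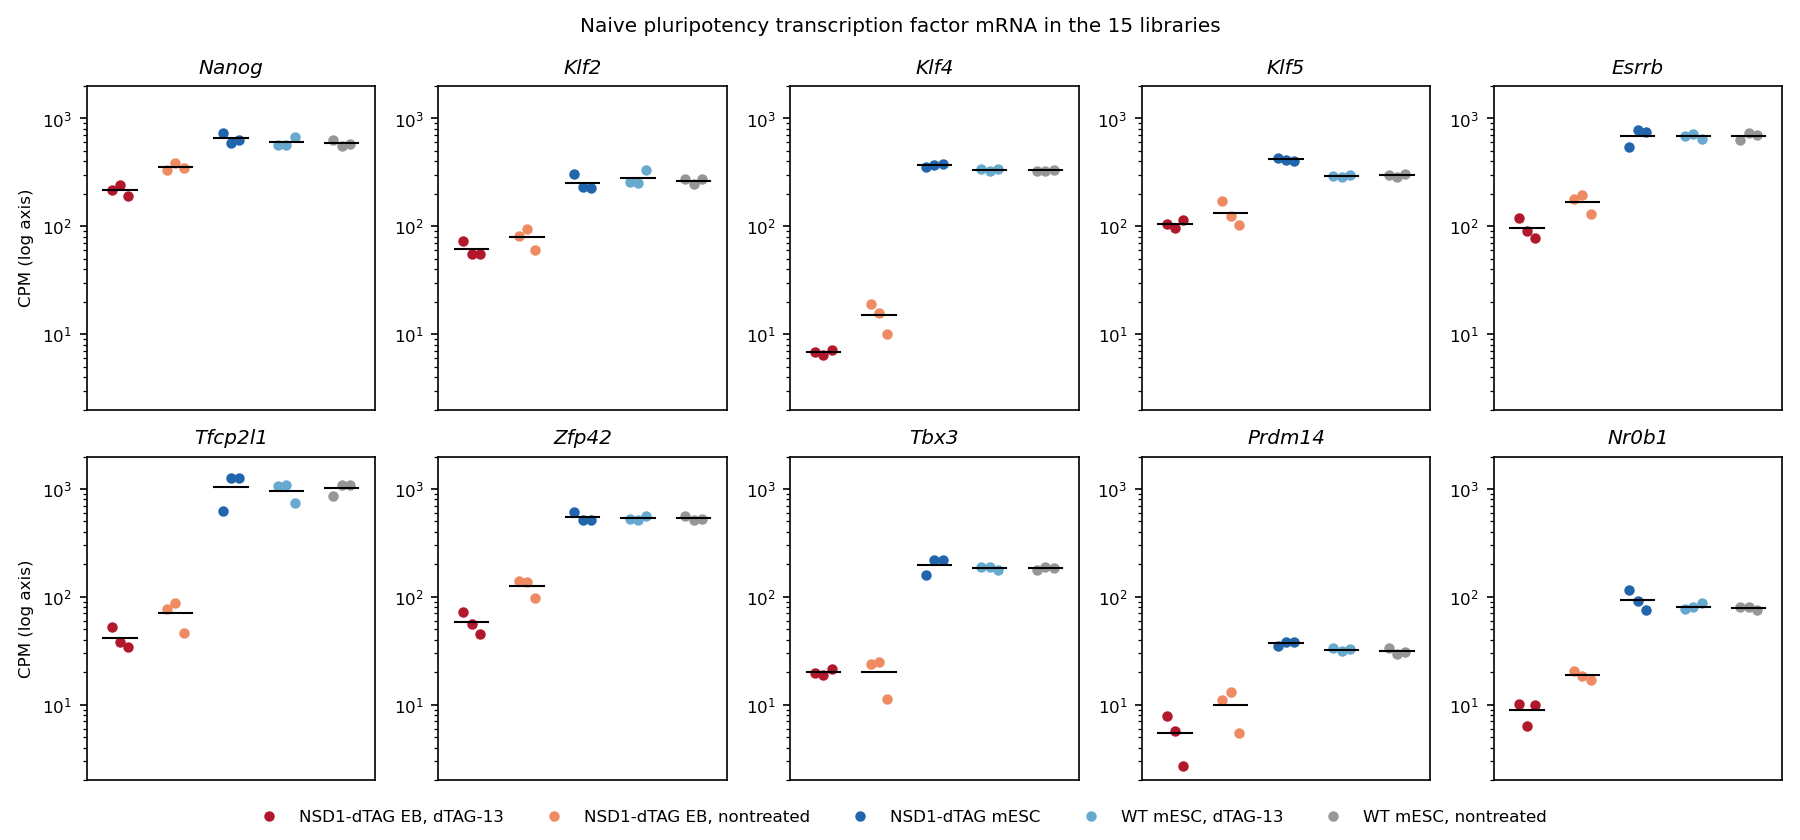
CPM of each factor on a log axis in the 15 libraries, with 1 point per library and a bar at the group mean; from left to right dTAG-13 EBs, nontreated EBs, NSD1-dTAG mESCs, WT dTAG-13 mESCs and WT nontreated mESCs. The 3 mESC groups lie close together on this axis, though Klf5, Klf4 and Prdm14 are higher in NSD1-dTAG mESCs than in both WT groups without overlap. Both EB groups lie below the mESC groups for every factor, and dTAG-13 EBs lie below nontreated EBs without overlap for Nanog, Klf4, Esrrb, Zfp42 and Nr0b1.

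Sequence upstream of the start sites was examined because the factors are known to bind one another's genes. RefSeq promoter tables for GRCm38.p6, the C57BL/6J reference and not the E14 genome, held windows for 7 of the 10 genes, with 9 start sites among them. The 250 bases before the start site are shown for Nanog, which kept most mRNA in EBs, and for Zfp42 and Nr0b1, which had the most similar pattern across libraries of any pair of the 10. They are written 5′ to 3′ on the strand of each gene: Nanog at chr6:122707239-122707488 (plus strand), Zfp42 at chr8:43307010-43307259 (minus strand) and Nr0b1 at chrX:86191525-86191774 (plus strand). Capitals mark the joined POU and SOX motif in Nanog, and in Zfp42 the reverse complements of the POU octamer and of a KLF CACC box.
Nanog: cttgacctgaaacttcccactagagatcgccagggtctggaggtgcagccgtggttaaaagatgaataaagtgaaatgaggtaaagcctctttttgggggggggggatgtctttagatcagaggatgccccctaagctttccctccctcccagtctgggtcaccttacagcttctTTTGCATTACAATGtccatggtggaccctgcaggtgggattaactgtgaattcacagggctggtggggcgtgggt
Zfp42: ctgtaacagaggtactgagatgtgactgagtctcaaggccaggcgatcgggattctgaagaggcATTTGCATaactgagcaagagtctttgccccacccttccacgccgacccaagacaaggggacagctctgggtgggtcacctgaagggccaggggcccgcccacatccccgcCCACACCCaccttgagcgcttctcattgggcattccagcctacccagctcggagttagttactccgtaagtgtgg
Nr0b1: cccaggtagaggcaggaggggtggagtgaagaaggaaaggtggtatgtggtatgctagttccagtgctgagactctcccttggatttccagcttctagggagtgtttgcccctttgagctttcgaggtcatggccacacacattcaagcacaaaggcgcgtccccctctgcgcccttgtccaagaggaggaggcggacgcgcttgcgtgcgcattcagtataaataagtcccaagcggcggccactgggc

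Motifs were sought on both strands of all 32851 windows of that length. The joined POU and SOX motif, TTTGCAT and ACAATG with 1 base of any kind between them, lay at -75 to -62 from the Nanog start site and was found in 2 windows (0.00609%), both of them Nanog's own and overlapping. The single SOX motif, ACAATG, in 10.7% of windows, was found in the same 2 and lies within the joined motif. The POU octamer, ATGCAAAT, in 1.6% of windows, lay at -186 to -179 in Zfp42, and the KLF box, GGGTGTGG, in 3.2% of windows, at -75 to -68 in Zfp42, both on the minus strand of the window. The looser TFCP2L1 pattern, CCNGNNNNNNCCNG, was in 24.9% of windows and in those of Klf2, Esrrb and Nr0b1; it is not capitalised. The ESRRB motif TCAAGGTCA and the STAT motif TTCCNGGAA, in 0.387% and 0.913% of all windows, were in 0 of the 9 windows, which says only that these letters are not in them. Binding was not measured here.

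All 10 naive factors were lower in nontreated EBs than in nontreated mESCs of the same NSD1-dTAG line. Klf4 fell most, Nanog least, and in none of the 10 did a library of one group reach the other. The comparison asks how far the naive network is lost in 6 days of differentiation without the compound. edgeR's quasi-likelihood test called all 10 lower at an adjusted p below 0.05, against 26.3% of 15193 genes tested; the groups did not overlap, with EBs lower, for 24.3% of these genes. The median log2 fold change of the 10 was -2.23, against 0.02 for all genes tested. In bulk RNA, fewer cells of a type and less mRNA per cell cannot be told apart. ERCC spike-ins, which the protocols say were added after extraction, were 0.292% to 0.496% of counts in the 9 mESC libraries. They had 0 counts in the 6 EB libraries, so a difference in library preparation cannot be told apart from stage.

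Among the factors that fell most, Klf4 (ENSMUSG00000003032.8, GRCm38 chr4:55527143-55532466, minus strand), a zinc-finger activator, was at 19.0, 15.8 and 10.0 CPM in nontreated EBs, against 351, 373 and 375 CPM in NSD1-dTAG mESCs. The EB levels were thus a few percent of the mESC levels, the lowest share of the 10. Its log2 fold change was -4.76 (SE 0.24, adjusted p = 1.74e-06 by edgeR). Tfcp2l1 (ENSMUSG00000026380.10, chr1:118627945-118685168, plus strand), a CP2-family factor, was at 76.6, 88.4 and 46.3 CPM in nontreated EBs, against 624, 1274 and 1250 CPM in NSD1-dTAG mESCs. The library that stands apart was the lowest in both groups, and the log2 fold change was -4.03 (SE 0.34, adjusted p = 2.37e-05 by edgeR). Tbx3 (ENSMUSG00000018604.18, chr5:119670669-119684724, plus strand), a T-box factor linked to Nanog expression, was at 24.0, 24.8 and 11.3 CPM, against 161, 219 and 218 CPM in NSD1-dTAG mESCs, a log2 fold change of -3.45 (SE 0.30). An antisense gene, Tbx3os1, shares 115 exon bases with Tbx3 but had at most 0.727 CPM in any library.

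Of the factors tied to GSK3 inhibition, Esrrb (ENSMUSG00000021255.17, chr12:86361117-86521628, plus strand), an orphan nuclear receptor that TCF7L1 represses, was at 179, 193 and 130 CPM in nontreated EBs, against 548, 778 and 751 CPM in NSD1-dTAG mESCs (log2 fold change -2.19, SE 0.19). Nanog (ENSMUSG00000012396.12, chr6:122707489-122714633, plus strand), a homeodomain factor whose level sets how readily stem cells differentiate, was at 335, 385 and 349 CPM, against 736, 593 and 630 CPM in NSD1-dTAG mESCs. Its log2 fold change of -1.02 (SE 0.13, adjusted p = 2.40e-04 by edgeR) was the smallest of the 10.

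The other 5 factors lay in between. Klf2 (ENSMUSG00000055148.7, chr8:72319033-72321656, plus strand), whose protein MEK and ERK signalling destabilises, had a log2 fold change of -1.83 (SE 0.20). Klf5 (ENSMUSG00000005148.8, chr14:99298691-99315036, plus strand), a further family member needed in the early embryo, had -1.80 (SE 0.19). Prdm14 (ENSMUSG00000042414.7, chr1:13113457-13127163, minus strand), which represses FGF receptor and DNA methyltransferase genes and is also needed for germ cells, had -2.05 (SE 0.28). Zfp42 (ENSMUSG00000051176.6, chr8:43295063-43306980, minus strand), which encodes REX1 and is the usual reporter of the naive state, was at 141, 138 and 98.1 CPM in nontreated EBs, against 613, 516 and 518 CPM in NSD1-dTAG mESCs (log2 fold change -2.27, SE 0.17). Nr0b1 (ENSMUSG00000025056.4, chrX:86191764-86195947, plus strand), which encodes the corepressor DAX1, had a log2 fold change of -2.48 (SE 0.19). The processed pseudogene Zfp42-ps1 was at 14.4 ± 3.67 CPM in nontreated EBs and 62.1 ± 7.72 CPM in NSD1-dTAG mESCs (SD, n = 3), so reads may be split between Zfp42 and this copy. Nanog-ps1 and Nanog-ps2 had at most 0.0712 CPM in any library.

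**Figure D2:**
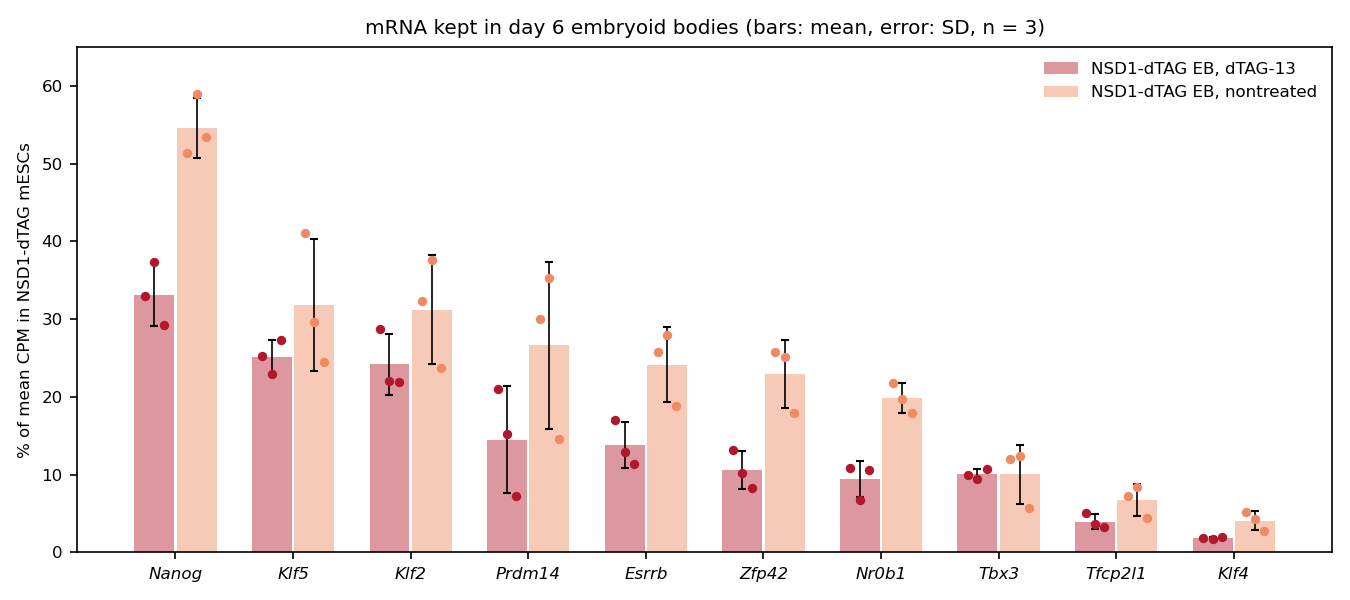
Each EB library's CPM as a percentage of the mean CPM in NSD1-dTAG mESCs, with bars at the mean, error bars of 1 SD and points for the 3 libraries; dTAG-13 EBs are left of nontreated EBs for each factor. Nanog kept 33.2% in dTAG-13 EBs and 54.6% in nontreated EBs, while Klf4 kept 1.85% and 4.08%.

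Expressed as a share of the mean level in NSD1-dTAG mESCs, the factors in EBs formed a graded series. Nanog kept 33.2 ± 4.04% in dTAG-13 EBs and 54.6 ± 3.89% in nontreated EBs. Klf5 kept 25.2 ± 2.19% and 31.8 ± 8.50%, and Klf2 kept 24.2 ± 3.91% and 31.2 ± 7.01%, in dTAG-13 EBs and nontreated EBs in that order. Below them in nontreated EBs came Prdm14 at 26.6%, Esrrb at 24.2%, Zfp42 at 22.9%, Nr0b1 at 19.8%, Tbx3 at 10.1%, Tfcp2l1 at 6.71% and Klf4 at 4.08%. In dTAG-13 EBs the corresponding shares were 14.5%, 13.8%, 10.5%, 9.42%, 10.0%, 3.98% and 1.85%. In both EB groups the 3 Nanog libraries lay above those of every other factor, whereas Klf5, Klf2, Prdm14, Esrrb and Zfp42 overlapped in nontreated EBs.

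Genes around the network are given from lists of related genes. Genes called higher were 33.1% of all genes tested. Of 20 naive effector and marker genes, 17 were called lower and 1 higher in nontreated EBs, with a median log2 fold change of -1.64. Of 9 tested genes of the LIF and STAT3 pathway, 5 were lower, among them Socs3, the feedback inhibitor of STAT3, at -3.51 and Stat3 at -2.14, and 4 were higher, including Lif at 1.66. Of 8 core pluripotency factors 4 were lower and 2 higher, with Sox2 at -0.93 and Utf1 at 1.40. All 12 formative epiblast genes were higher, and Otx2, a homeobox gene of that stage, was at 139 ± 8.73 CPM in nontreated EBs and 6.40 ± 0.443 CPM in NSD1-dTAG mESCs (SD, n = 3; log2 fold change 4.30, adjusted p = 3.48e-07 by edgeR). Of 6 genes that PRDM14 represses, 5 were higher, with Fgfr2 at 5.15, Dnmt3a at 3.60 and Dnmt3b at 2.84, and 1 was lower, Uhrf1, which encodes a cofactor of maintenance DNA methylation, at -1.21. The 12 tested members of the Klf family outside the 10 factors were divided, with 6 higher, such as Klf7 at 1.90 and Klf6 at 1.64, and 5 lower, such as Klf8 at -1.78.

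With dTAG-13, EBs had less mRNA of 5 of the 10 factors than nontreated EBs: Klf4, Zfp42, Nr0b1, Esrrb and Nanog fell to between 44.8% and 59.9% of the nontreated level in the fit. None of the 10 rose, and Tbx3 hardly differed. The comparison asks what continuous exposure of the tagged line to the degrader changes during differentiation. edgeR called 5 of 10 lower and 0 higher, against 2.78% lower among 15236 genes tested. Of the 10, 6 had an unadjusted p below 0.05, against 21.7% of all genes in either direction. The same 5 were the ones whose libraries did not overlap, which held, with dTAG-13 lower, for 11.6% of all genes. The median log2 fold change of the 10 was -0.80, against -0.01 for all genes, and all 10 estimates were negative.

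Klf4 was at 6.84, 6.42 and 7.07 CPM in dTAG-13 EBs, against 19.0, 15.8 and 10.0 CPM in nontreated EBs. The dTAG-13 libraries lay close together and below every nontreated library, of which the third, which stands apart, was lowest. The log2 fold change was -1.16 (SE 0.22, adjusted p = 0.0234 by edgeR). Zfp42 was at 72.3, 55.7 and 45.6 CPM in dTAG-13 EBs, against 141, 138 and 98.1 CPM in nontreated EBs, with no overlap (log2 fold change -1.14, SE 0.19, adjusted p = 0.0155 by edgeR). Zfp42-ps1 was at 7.18 ± 2.05 CPM in dTAG-13 EBs and 14.4 ± 3.67 CPM in nontreated EBs. Nr0b1 was at 10.2, 6.38 and 10.0 CPM in dTAG-13 EBs, against 20.5, 18.6 and 16.9 CPM in nontreated EBs. These groups were well apart, with a log2 fold change of -1.09 (SE 0.19, adjusted p = 0.0180 by edgeR).

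Esrrb was at 118, 89.6 and 78.5 CPM in dTAG-13 EBs, against 179, 193 and 130 CPM in nontreated EBs. The highest dTAG-13 library stayed just under the lowest nontreated one, and the log2 fold change was -0.83 (SE 0.18, adjusted p = 0.0346 by edgeR). Nanog was at 215, 244 and 191 CPM in dTAG-13 EBs, against 335, 385 and 349 CPM in nontreated EBs. Its groups were clearly separated and its estimate was the most precise of the 10, at -0.74 (SE 0.11, adjusted p = 0.0112 by edgeR).

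The other 5 factors did not pass the test. Prdm14, at 7.82, 5.67 and 2.70 CPM in dTAG-13 EBs, against 11.1, 13.1 and 5.43 CPM in nontreated EBs, had overlapping groups, with library 3 low in both (log2 fold change -0.89, SE 0.41, adjusted p = 0.253 by edgeR). Tfcp2l1 was at 53.0, 37.8 and 34.4 CPM in dTAG-13 EBs, against 76.6, 88.4 and 46.3 CPM in nontreated EBs, where library 3 was again the lowest of each group (-0.77, SE 0.24, adjusted p = 0.102 by edgeR). Klf2 at -0.38 (SE 0.17, adjusted p = 0.241) and Klf5 at -0.35 (SE 0.18, adjusted p = 0.298) had smaller estimates in the edgeR fit. Tbx3 was at 19.8, 18.8 and 21.4 CPM in dTAG-13 EBs, against 24.0, 24.8 and 11.3 CPM in nontreated EBs. All dTAG-13 values lay inside the nontreated range, and the estimate was -0.02 with a wide SE of 0.26.

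The calls rest on few libraries. Same-numbered EB libraries deviate together, but library 3 stands apart in both EB groups and the labels state no pairing. With the replicate number as a block edgeR called 7 of the 10 lower, against 5.17% of all genes, adding Prdm14 (-0.92, adjusted p = 0.0242) and Tfcp2l1 (-0.75, adjusted p = 0.0304). Without library 3 of either EB group, which stand apart, all 10 were called lower, against 10.2% of all genes; their log2 fold changes then ran from -1.41 for Klf4 to -0.35 for Tbx3, and the test set 2 libraries against 2. Leaving out nontreated EB library 2 left 0 of the 10 called by edgeR (6 at an unadjusted p below 0.05). Calls among all genes then fell from 1030 to 182. Without nontreated EB library 1 Nanog alone was left, with 301 genes called among all genes. Without dTAG-13 EB library 1 Zfp42 and Esrrb were left, with 184 genes, and without library 2 Nanog and Nr0b1, with 395. Without nontreated EB library 3, 6 factors and 1293 genes were called, and without dTAG-13 EB library 3, 4 factors and 1148 genes. Klf4, Zfp42, Nr0b1, Esrrb and Nanog kept their direction in each of these fits.

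**Figure D3:**
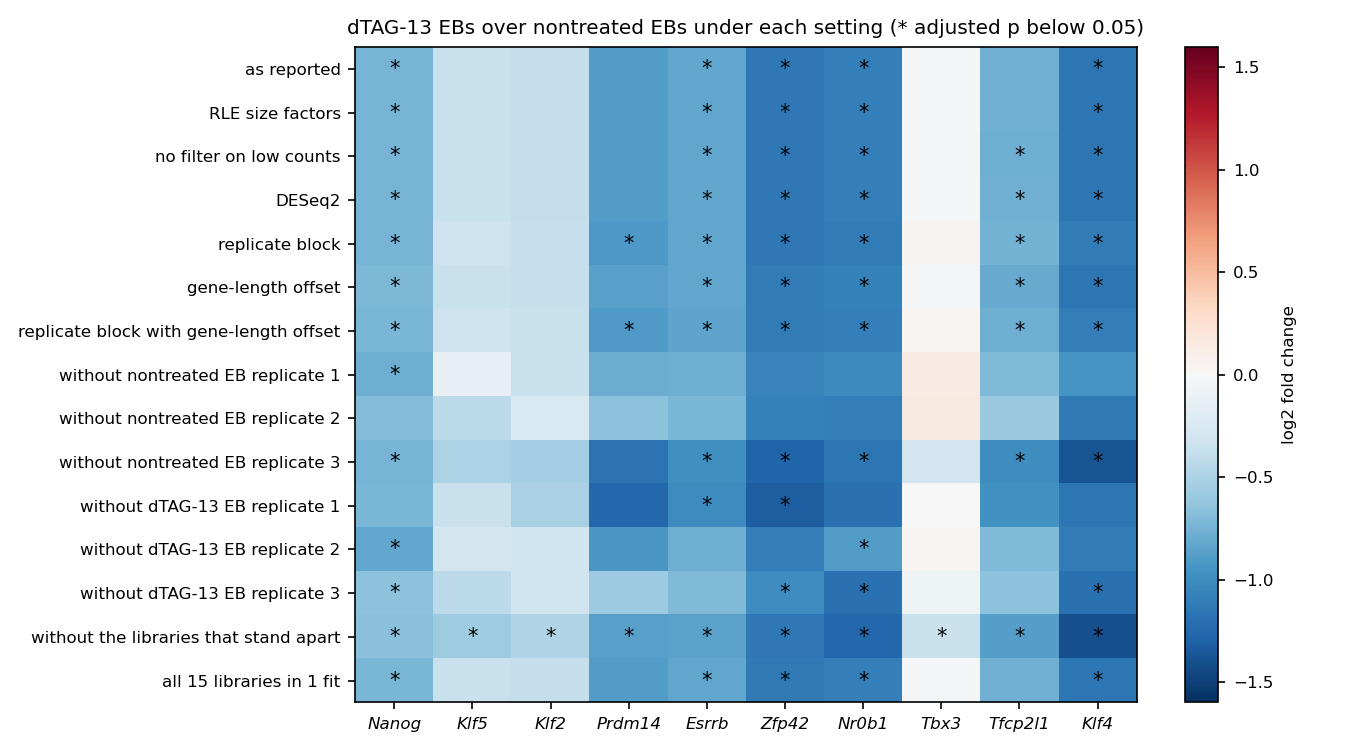
Log2 fold change of each factor, dTAG-13 EBs over nontreated EBs, by colour under each setting, with an asterisk where the adjusted p was below 0.05. Klf4, Zfp42, Nr0b1, Esrrb and Nanog are blue, that is lower with dTAG-13, in every line, all 10 carry an asterisk without the libraries that stand apart, and only Tbx3 has lines on the positive side.

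Genes around the naive factors moved less uniformly between dTAG-13 EBs and nontreated EBs, where 3.98% of all genes tested were called higher. Of the core pluripotency factors, Pou5f1 was at 626, 619 and 696 CPM in dTAG-13 EBs and 603, 607 and 862 CPM in nontreated EBs. Sox2 was at 400, 384 and 313 CPM in dTAG-13 EBs and 381, 343 and 339 CPM in nontreated EBs, so both overlapped. Of 20 naive effectors and markers, 4 were lower, among them Tcl1 at -1.21, Jam2 at -1.19 and Tdh, threonine dehydrogenase, at -0.83, and Dppa4 was higher at 0.53. The median of that list was -0.33. Without the libraries that stand apart, 9 of the 20 were lower and 2 higher, against 10.2% lower and 10.7% higher among all genes.

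In the GSK3 and TCF list of 10, 1 gene was called higher and 2 lower. Tcf7l1, the repressor of Esrrb and Nanog named above, was higher, at 81.4, 90.1 and 68.7 CPM in dTAG-13 EBs, against 53.5, 53.4 and 58.4 CPM in nontreated EBs (log2 fold change 0.52, SE 0.11, adjusted p = 0.0352 by edgeR). The groups did not overlap. Axin2 and Sp5, both targets of Wnt and beta-catenin, were lower at -1.38 and -3.31. Any link between these 3 genes and the levels of Esrrb and Nanog was not tested. Of 10 LIF and STAT3 genes 1 was lower, Pim1 at -0.65, and Stat3 overlapped at 30.2 ± 1.65 CPM in dTAG-13 EBs and 33.8 ± 8.46 CPM in nontreated EBs (SD, n = 3). Of 15 MEK and ERK genes, Dusp6, a phosphatase that ERK induces, was lower at -0.39. In a list of 12 genes tied to exit from the naive state, Tcf7l1 and Flcn, which encodes folliculin, were higher.

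Of 12 formative epiblast genes 1 was called, Fgf8 at -1.63, and Otx2 was at 125 ± 20.3 CPM in dTAG-13 EBs and 139 ± 8.73 CPM in nontreated EBs. Of 6 genes that PRDM14 represses, Dnmt3l was lower at -0.62. The 12 tested other Klf genes had 0 calls by edgeR, with 5 at an unadjusted p below 0.05 (21.7% of all genes). DESeq2 called 3 of them higher (6.28% of all genes). Their median in the edgeR fit was 0.27, opposite in sign to the estimates of Klf2, Klf4 and Klf5. With the replicate block 5 of these 12 were higher, against 6.87% of all genes. Without the libraries that stand apart 4 were higher, against 10.7% of all genes, and 1 lower, against 10.2%.

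**Figure D4:**
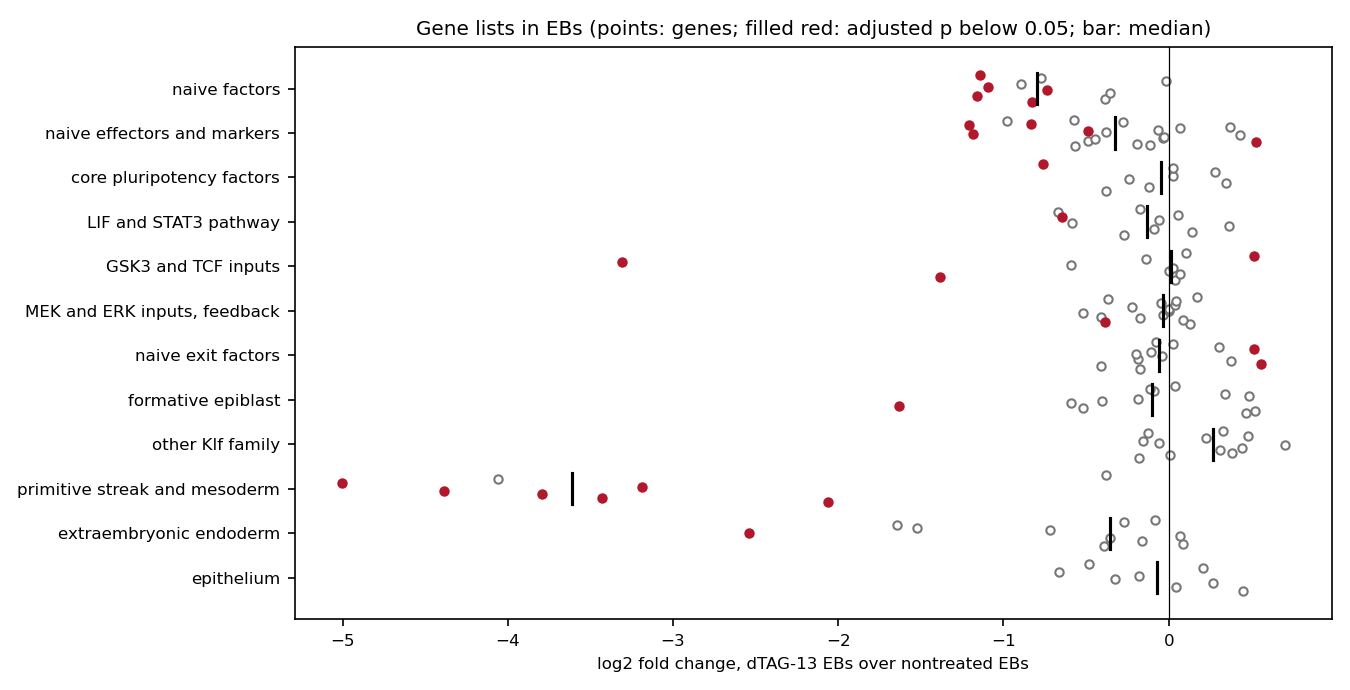
Log2 fold changes of single genes, dTAG-13 EBs over nontreated EBs, by list, with filled red points for an adjusted p below 0.05 and a bar at each list's median. The naive factors have a median of -0.80, naive effectors and markers of -0.33 and primitive streak and mesoderm genes of -3.61, while the core factors and the signal lists lie near 0.

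Markers of other cell types differed between the same libraries. Of 8 primitive streak and mesoderm markers 6 were called lower with dTAG-13, and their summed CPM was 38.0 to 131 in dTAG-13 EBs against 323 to 967 in nontreated EBs, with none of the 8 at 0 in either group. Eomes was at 36.4, 70.7 and 26.4 CPM in dTAG-13 EBs, against 169, 259 and 124 CPM in nontreated EBs. Without the libraries that stand apart 7 of these 8 were lower, against 10.2% of all genes. Of 11 extraembryonic endoderm markers 1, Foxa2 at -2.54, was lower, and their summed CPM was given above; without the libraries that stand apart 7 were lower. Of 9 primordial germ cell markers, which include Prdm14 itself, Ddx4 and Dazl were higher at 1.32 and 1.21, and the summed CPM was 197 to 256 in dTAG-13 EBs and 183 to 305 in nontreated EBs. Among 5 trophoblast, 6 endothelial and 5 neural markers tested, Cdx2, Hand1, Cdh5 and Pax6 were lower and Tek was higher. Of 8 epithelial and 5 fibroblast markers tested, edgeR called 0. An unadjusted p below 0.05 was found for 2 of each, against 21.7% of all genes. DESeq2 called 1 of these 8 epithelial and 2 of these 5 fibroblast markers in either direction, against 1686 of 15236 genes in either direction. Their part in the levels of the naive factors was not tested.

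The dTAG-13 difference in EBs was set against that in WT mESCs in 1 fit of 12 libraries. For Nr0b1, Klf4, Zfp42 and Nanog the difference was lower in NSD1-dTAG EBs than in WT mESCs by -1.14, -1.17, -1.14 and -0.77 on the log2 scale (SE 0.20, 0.22, 0.21 and 0.14), with adjusted p = 0.0096, 0.0147, 0.0126 and 0.0142 by edgeR. These 4 of 10 stand against 1.27% lower among 15855 genes. Esrrb, at -0.83 (SE 0.21, adjusted p = 0.0526 by edgeR), missed the threshold, and passed it with the replicate block (-0.82, adjusted p = 0.0258). The 2 arms differ in cell line, in stage and in length of exposure, 6 days against 72 h, which cannot be told apart here. Without the libraries that stand apart 9 of the 10 were lower, against 6.03% of all genes.

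In WT mESCs, which lack the tag, 72 h of dTAG-13 left all 10 naive factors within their replicate spread. The comparison asks whether the compound acts without its target. edgeR called 0 of the 10 and 0 of 13784 genes (0%), and DESeq2 also called 0. None of the 10 had an unadjusted p below 0.05 in either, against 1.66% of all genes by edgeR. All 10 overlapped between groups, whereas 6.06% of genes did not. Nanog was at 563, 566 and 678 CPM in WT dTAG-13 mESCs, against 637, 560 and 575 CPM in WT nontreated mESCs. Klf4 was at 337, 322 and 336 CPM, against 328, 324 and 336 CPM in WT nontreated mESCs, so each group lay within a few percent of the other. The estimates ran from -0.08 for Tfcp2l1 (SE 0.16) to 0.07 for Klf2 (SE 0.10), and the signs of estimates this close to 0 changed with the settings. Tfcp2l1 was at 1069, 1091 and 739 CPM in WT dTAG-13 mESCs, against 862, 1098 and 1094 CPM in WT nontreated mESCs, with the lowest value of each group in the library that stands apart.

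Klf5 was the single naive factor called between the knock-in line and WT mESCs, both nontreated. The comparison asks how the tagged line differs before any dTAG-13. Klf5 was at 431, 413 and 407 CPM in NSD1-dTAG mESCs, against 299, 287 and 304 CPM in WT nontreated mESCs, with no overlap. The WT dTAG-13 libraries, at 291, 285 and 302 CPM, also lay below all NSD1-dTAG libraries. The log2 fold change was 0.55 (SE 0.07, adjusted p = 0.0231 by edgeR). With the replicate number as a block the adjusted p was 0.00955 by edgeR, but the labels state no pairing and library 1 stands apart in both groups. This 1 of 10 stands against 0.547% higher among 13895 genes. Klf4 and Prdm14 also did not overlap, with log2 fold changes of 0.21 (SE 0.06, adjusted p = 0.184) and 0.31 (SE 0.08, adjusted p = 0.127) that edgeR did not call, so 3 of 10 did not overlap with NSD1-dTAG higher, against 6.07% of all genes.

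**Figure D5:**
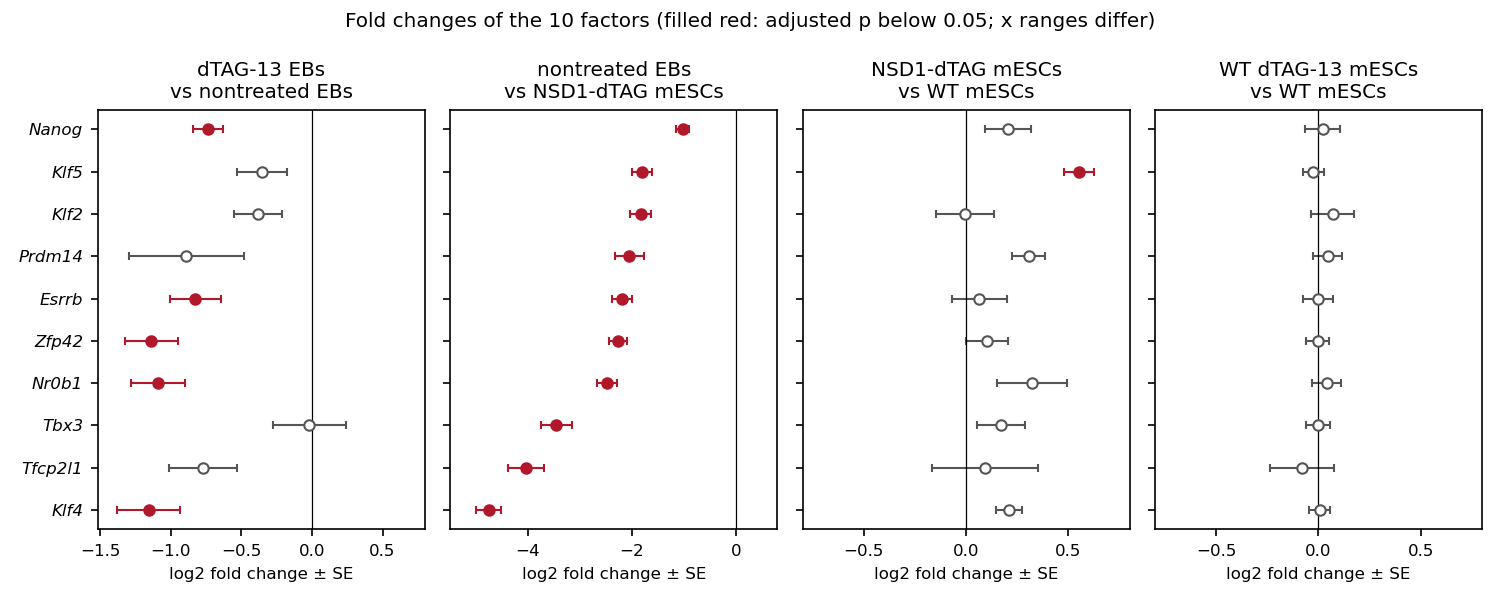
Log2 fold change ± SE of each factor from edgeR, with panels from left to right for dTAG-13 EBs over nontreated EBs, nontreated EBs over NSD1-dTAG mESCs, NSD1-dTAG mESCs over WT nontreated mESCs and WT dTAG-13 mESCs over WT nontreated mESCs; the x ranges differ, and filled red points have an adjusted p below 0.05. The panels hold 5, 10, 1 and 0 red points.

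The other estimates ran from -0.01 for Klf2 to 0.32 for Nr0b1. Leaving out any 1 WT library, or NSD1-dTAG library 2 or 3, ended the Klf5 call by edgeR, with adjusted p from 0.0807 to 0.164. Its log2 fold changes stayed between 0.51 and 0.58. In these fits 2 to 4 of the 10 had an unadjusted p below 0.05, and 1 to 12 genes were called among all genes. With all 6 libraries 14.1% of all genes had an unadjusted p below 0.05, and 259 were called. Without NSD1-dTAG library 1, which stands apart, 5 factors were higher: Klf5, Prdm14, Tfcp2l1, Klf4 and Tbx3, against 4.33% of all genes in that fit. Without both libraries that stand apart 7 were higher, against 11.5% of all genes, and Klf2 was lower at -0.15 (adjusted p = 0.00196 by edgeR), against 11.2% of all genes called lower; this fit again held 2 libraries against 2. Scaling by the ERCC spike-ins moved Klf5 to 0.42 (SE 0.25, adjusted p = 1.00) and left 0 of the 10 called by edgeR, with 0 at an unadjusted p below 0.05. With TMM factors and all 6 libraries, edgeR called 1.32% of all genes lower. In that fit Khdc3 was lower at -1.32 among 20 naive effectors and markers tested, Lef1 at -0.62 among 10 GSK3 and TCF genes and Dnmt3a at -1.14 among 6 genes that PRDM14 represses. Dnmt3a and Lef1 were also the 2 lower among 10 formative epiblast genes. Of 14 MEK and ERK genes Egr1 was lower at -0.92 and Spry2 higher at 0.56. Among markers of other cell types, Tfap2c and Dazl of 9 germ cell genes were lower at -0.68 and -0.996, Cldn6 of 7 epithelial genes at -1.25 and Nes of 4 neural genes at -1.02.

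The 10 factors did not share 1 pattern across the 15 libraries. Likeness was measured as the root mean square difference of gene-centred log2(CPM + 1), so that a smaller value means a closer pattern. Zfp42 and Nr0b1 were the closest pair at 0.206 and Esrrb and Zfp42 next at 0.227, while Nanog and Klf4 were farthest apart at 1.89. Tbx3 had no factor nearer than Esrrb at 0.495, and Klf4 none nearer than Tfcp2l1 at 0.482. Among 12040 genes, the nearest outside the 10 was Cep19 at 0.115 for Nanog, Oas1a at 0.117 for Zfp42, Esrrb's being Nr5a2 at 0.154 and Klf2's Zfp296 at 0.159. Klf5 was nearest to Klk10 at 0.171, Klf4 to Jam2 at 0.181, Nr0b1 to Lrrc34 at 0.194, Tbx3 to Susd2 at 0.206, Prdm14 to Sgk1 at 0.218 and Tfcp2l1 to Cobl at 0.243. Klk10 had means of only 0.178 CPM in dTAG-13 EBs, 0.330 in nontreated EBs and 3.78 in NSD1-dTAG mESCs. Oas1a had 0.485, 1.91 and 13.1 CPM in that order. The added 1 CPM makes the fall of genes this low look smaller, so their nearness does not mean that an equal share was kept. Nr5a2, which encodes a nuclear receptor, was at 20.2 ± 5.33 CPM in dTAG-13 EBs, 25.9 ± 5.54 in nontreated EBs and 131 ± 18.8 in NSD1-dTAG mESCs (SD, n = 3). Jam2, a junctional adhesion molecule, was at 4.56 ± 1.12, 10.2 ± 1.28 and 287 ± 24.3 CPM in the same 3 groups. These likenesses are descriptions over libraries that share groups, with no test.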

How the data were processed

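The authors deposited raw gene counts, whole numbers with 1 table per library and not normalised. Per the submitters' processing notes, the tools were bcl2fastq 2.20.0.422, STAR and DESeq2 1.30.0 with genome builds mm10 and GRCm38.p6; how reads were counted, on which strand and with which annotation is not given in the sources used here. Per the labels' protocols, ERCC spike-ins were added after extraction and libraries were strand-specific. These spike-in counts were kept out of library totals; they were 0.292% to 0.496% of counts in the 9 mESC libraries and 0 in the 6 EB libraries. Of 55471 gene IDs, 55230 matched GENCODE M21, and the other 241 took up to 0.00196% of the counts in a library.

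CPM is a gene's count per 1000000 gene counts of its library, and TPM also divides by union exon length. Each comparison was fitted on its own groups with edgeR 4.0.16 in R 4.3.3 (quasi-likelihood F test, TMM, filterByExpr, Benjamini-Hochberg adjustment over all genes tested, called at an adjusted p below 0.05), and the interaction on 12 libraries. The fits were run on simulated counts with log2 changes of size 1 planted in 200 genes. These counts had the same spread for every gene and no library that stood apart, so error rates in libraries like those here were not tested. Alternatives were RLE factors, no filter, DESeq2 1.42.0, a replicate block, a gene-length offset, leaving out libraries, 1 fit of all 15 libraries, ERCC scaling and all 6 WT libraries. Same-numbered libraries deviated together, with correlations of 0.58, 0.29 and 0.29 for NSD1-dTAG against WT mESCs and 0.23, 0.27 and 0.37 for the EB groups. In both comparisons the library that stands apart has the same number in each group. These correlations therefore cannot tell a pairing from that shared feature, and the labels state no pairing. The replicate block is given only as an alternative. Every pair of libraries within a group differed by more than counting error (chi-square per degree of freedom 1.47 or more). All 10 factors are reported. From each of 18 further lists up to 3 called genes by p, or the 2 of highest CPM if none was called, were to be named, some being left out for length and 1 not reported here; Dppa4, Pou5f1, Sox2, Stat3 and Otx2 in EBs were added after their values were seen. The factors and lists were chosen with earlier results of these data known.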

Additional observations from a re-analysis of the deposited data

Results flagged for a closer look

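For 4 of the 10 factors the difference made by dTAG-13 itself differed between NSD1-dTAG EBs and WT mESCs in edgeR's interaction test, which is what marked them for a closer look. The differences, in log2 units, were -0.77 for Nanog, -1.17 for Klf4, -1.14 for Zfp42 and -1.14 for Nr0b1. Each passed the threshold in 12 of 12 fits that left out 1 library. These fits pool the spread of EB and mESC libraries, and some of them left out only a WT library. In the EB comparison alone, Nanog passed in 4 of 6 such fits, Zfp42 and Nr0b1 in 3 of 6 and Klf4 in 2 of 6. The cell line, the stage and the length of exposure differ along with the tag and cannot be told apart.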

How the results depend on the processing

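The 10 factors were lower in nontreated EBs than in NSD1-dTAG mESCs, and called, under every alternative run for that comparison. Elsewhere the number of factors called changed. For NSD1-dTAG against WT mESCs it was 1, and 8 without the libraries that stand apart, 3 with all 6 WT libraries, 0 with ERCC scaling, and 0 to 5 with 1 library left out. Genes called among all genes, 259, were 636 with DESeq2, 785 with the replicate block, 634 with the gene-length offset, 1403 with both, 3123 without the libraries that stand apart, 500 in 1 fit of all 15 libraries, 1 with ERCC scaling, 1150 with all 6 WT libraries and 1 to 1248 with 1 library left out. For dTAG-13 EBs against nontreated EBs 5 factors were called, 10 without the libraries that stand apart and 0 to 6 with 1 library left out. All genes called, 1030, were 1686 with DESeq2, 1834 with the replicate block, 1847 with the block and the length offset, 3233 without the libraries that stand apart, 1931 in 1 fit of all 15 libraries and 182 to 1293 with 1 library left out. For the interaction 4 factors were called, 8 without a filter on low counts and 9 without the libraries that stand apart; all genes called, 456, were 915, 804 with DESeq2, 1897 without the libraries that stand apart and 202 to 763 with 1 library left out. In WT mESCs with and without dTAG-13, 0 genes were called by edgeR (229 at an unadjusted p below 0.05) and by DESeq2 (79), and 16 without the libraries that stand apart.

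Signs turned for estimates near 0. In WT mESCs they were 0.0019, 0.00070 and 0.0016 for Esrrb, Zfp42 and Tbx3 without a filter. With the length offset they were -0.0033, -0.0099, 0.012 and 0.017 for Nanog, Klf4, Esrrb and Tbx3, and -0.0036, -0.010, 0.013 and 0.017 with the replicate block as well. Without the libraries that stand apart they were -0.0062, -0.023 and 0.0087 for Nanog, Klf2 and Zfp42; Esrrb was 0.00033 in 1 fit of all 15 libraries, and Klf5, Esrrb, Zfp42 and Tbx3 were 0.040, 0.060, 0.065 and 0.061 with ERCC scaling. With 1 library left out the ranges there were -0.066 to 0.081 for Nanog, -0.058 to 0.15 for Klf2, -0.0090 to 0.035 for Klf4, -0.041 to 0.0019 for Klf5, -0.060 to 0.055 for Esrrb, -0.19 to 0.085 for Tfcp2l1, -0.031 to 0.035 for Zfp42, -0.030 to 0.029 for Tbx3, and -0.010 to 0.077 for Nr0b1. Between NSD1-dTAG and WT mESCs, Klf2 was 0.0028 with RLE factors and with DESeq2 and 0.0058 in 1 fit of all 15 libraries, and Esrrb and Zfp42 were -0.0093 and -0.040 with ERCC scaling. With 1 library left out the ranges were -0.18 to 0.083 for Klf2, -0.0086 to 0.19 for Esrrb, -0.053 to 0.35 for Tfcp2l1 and -0.0060 to 0.17 for Zfp42. Tbx3 in dTAG-13 EBs against nontreated EBs was 0.042 with the replicate block, 0.032 with the length offset added and -0.30 to 0.15 with 1 library left out; in the interaction it was 0.0051 with the block and -0.30 to 0.15 with 1 library left out.

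Same-numbered libraries did not all deviate together in the other comparisons, where the library that stands apart has a different number in each group. Correlations were -0.29, 0.23 and -0.25 for WT dTAG-13 against WT nontreated mESCs and -0.20, 0.13 and -0.27 for nontreated EBs against NSD1-dTAG mESCs. There the replicate block left the number of factors called at 0 and 10 and gave 0 and 7999 genes called among all genes, against 0 and 9037 without it. In these 2 comparisons not every library correlated best with its own number. Apart from Prdm14 and Tfcp2l1 in EBs, the block changed no call of a factor between 2 groups. The causes of these changes were not tested. ERCC scaling gave no value for EBs, whose ERCC counts were 0. A fit without the libraries that stand apart sets 2 libraries against 2, and the spread is then estimated from libraries that lie close together. Depth did not limit detection of any of the 10, and Prdm14 had the lowest count, 70.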
